A study of Danio rerio with 6 samples.

Results

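Myoglobin, the cytoglobins and neuroglobin are the globins that red cells do not use to carry oxygen in the blood, and their transcripts were followed in kidney marrow taken whole from adult zebrafish. The set was mb, cygb1, cygb2 and ngb, found by symbol in the deposited table, and gave 4 genes of the 32057 listed. mb and cygb2 matched by their own symbols, ngb as NGB (ENSDARG00000053475), and cygb1 as the gene named CYGB (ENSDARG00000099371), because the name table does not hold cygb1. The set was chosen with the genotype difference of mb in these same libraries known. The levels of the 4 genes and their differences between genotypes are therefore given as a description, with no p-value. mb and CYGB were part of a fit across all genes, and nothing is read from the call of mb there.

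Whole kidney marrow is the blood-forming tissue of the adult fish, and the dissected tissue can also hold tubule, interrenal and other neighbouring cells. The study compared wild-type fish with fish heterozygous for rad21nz171, a premature stop in exon 8 of rad21a that every cell of the fish carries from the germline. The wild-type fish were siblings of the mutants, from crosses between heterozygous parents. No exact age, sex or treatment is stated for the fish in the labels. There were 3 libraries per genotype, each made from the marrow of 3 pooled fish and called here wild-type or heterozygous pool 1 to 3. Levels are TPM, transcript abundances scaled for length and to a fixed total, which can be compared between genes. TPM keeps no read depth, so no counting error is known, and p-values measure the spread between these pools.

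Globins hold a haem group that binds oxygen and other small gases. Myoglobin stores oxygen in muscle, helps it to diffuse to mitochondria and reacts with nitric oxide; it is the classic globin of heart and oxidative skeletal muscle. In the common carp its mRNA has also been found outside muscle and responds to hypoxia. Cytoglobin is found in fibroblasts and stellate cells of mammals, reacts with nitric oxide and is kept reduced by cytochrome b5 and its reductases. Fish carry a pair of cytoglobin genes. Neuroglobin is a globin of neurons and retina.

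rad21a, the mutated gene, stood at 110.1, 73.9 and 108.2 TPM across wild-type pools 1 to 3, against 67.4, 61.6 and 61.98 TPM across heterozygous pools 1 to 3. Its heterozygous pools were all below the wild-type pools, and the difference did not pass the threshold (log2 difference -0.58, SE 0.22, limma adjusted p = 0.30). The libraries also differed in what tissue they held. The 21 genes of the oocyte and egg coat list reached a sum of 22023 TPM in wild-type pool 2 and 6127 TPM in pool 3, against 397 TPM in pool 1 and 26.3 to 277 TPM among heterozygous pools. STAR, the carrier that feeds cholesterol to mitochondria of steroid-making cells, reached 375 and 561 TPM in heterozygous pools 2 and 3, while the other pools peaked at 1.33 TPM. Red cell globin genes, of which 17 were found, made up 27.7%, 7.53% and 14.9% of all TPM across wild-type pools 1 to 3, and 10.8%, 23.4% and 14.8% across heterozygous pools 1 to 3.

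mb (ENSDARG00000031952) was by far the most abundant of the 4 genes in every library. Its level was 230.0, 282 and 192 TPM across wild-type pools 1 to 3, against 655, 583 and 845 TPM across heterozygous pools 1 to 3. The genotypes did not overlap, as was so for 21.7% of all tested genes, 11.9% with the heterozygotes higher, and the lowest heterozygous pool was 2.07-fold above the highest wild-type pool. Wild-type pools averaged 235 ± 44.9 TPM, and heterozygous pools 694 ± 135 TPM (SD, n = 3 each), a ratio of 2.96. On the log2(TPM + 1) scale the heterozygous mean was 1.56 higher, with a standard error of 0.23. Within a genotype the pools were close, with the highest 1.47-fold above the lowest in the wild type and 1.45-fold in the heterozygotes. In bulk tissue, more cells of a type that makes mb and more mb RNA per cell cannot be told apart.

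The place of mb among all transcripts moved accordingly. It ranked 358th, 413th and 522nd of 32057 genes in wild-type pools 1 to 3, and 185th, 185th and 164th in heterozygous pools 1 to 3. It held 0.0192% to 0.0282% of all TPM among wild-type pools and 0.0583% to 0.0845% in the heterozygotes. Of the 16537 genes tested, 284, or 1.72%, had a log2 difference at least as high as that of mb. Of the 960 tested genes with a mean of at least 100 TPM, 26 did, mb included.

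**Figure D1:**
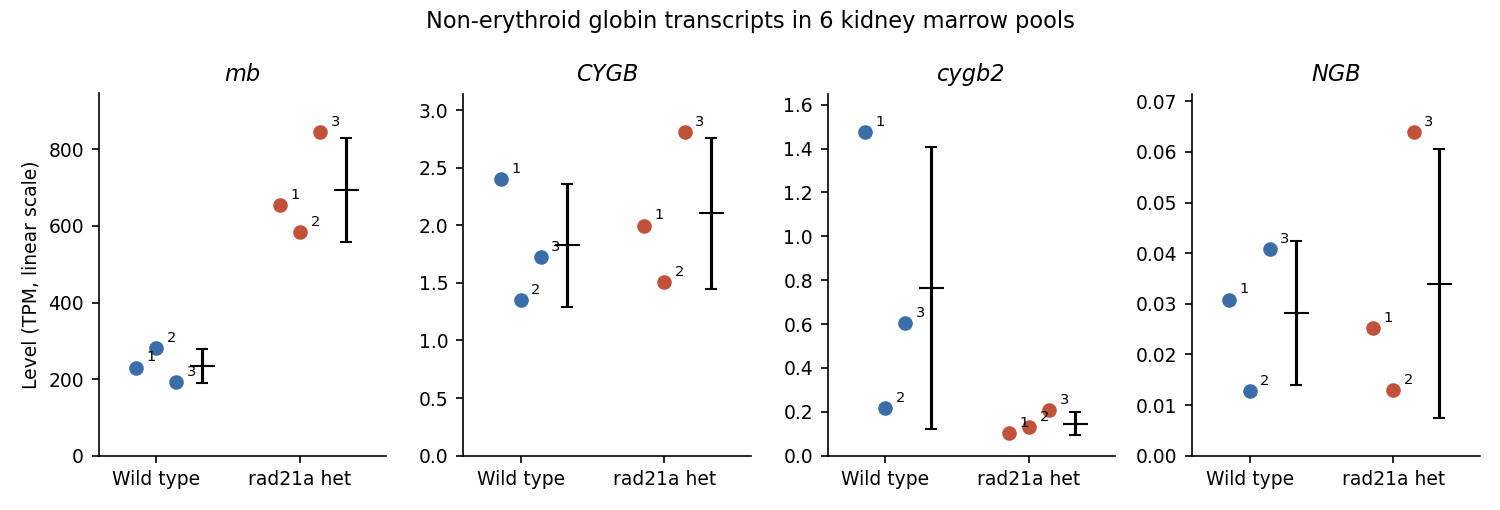
Level in TPM, on linear axes with a separate scale for each gene, of mb, CYGB, cygb2 and NGB in the 3 wild-type and 3 heterozygous pools. Points are pools, numbered, and the black mark and bar beside them are the mean and SD of the genotype. mb runs from 192 to 282 TPM among wild-type pools and from 583 to 845 TPM among heterozygous ones, while no pool of the other genes exceeds 2.81 TPM.

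The cytoglobins were present at low levels. CYGB was listed at 2.40, 1.35 and 1.72 TPM among wild-type pools, against 1.996, 1.51 and 2.81 TPM among heterozygous ones. Its genotypes overlapped, with means of 1.83 ± 0.533 and 2.103 ± 0.656 TPM (SD, n = 3 each) and a log2 difference of 0.13 with a standard error of 0.24. cygb2 (ENSDARG00000070148) was listed at 1.47, 0.218 and 0.606 TPM for the wild type, and 0.102, 0.131 and 0.206 TPM for the heterozygotes. Its genotypes did not overlap, as was so for 9.79% of all tested genes with the heterozygotes lower, and the gap was narrow, the lowest wild-type pool being 1.06-fold above the highest heterozygous pool. The heterozygous mean of 0.146 ± 0.0538 TPM was 19.1% of the wild-type mean of 0.766 ± 0.643 TPM (SD, n = 3 each), a difference carried mostly by wild-type pool 1. On the log2(TPM + 1) scale the cygb2 difference was -0.56, a scale that understates changes of genes this low.

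NGB was the lowest of the 4 genes, with 0.0128 to 0.0408 TPM across wild-type pools and 0.0130 to 0.0639 TPM across heterozygous pools, and its genotypes overlapped. The order mb, CYGB, cygb2, NGB held in each of the 6 libraries. mb exceeded the sum of the other 3 genes by 58.9-fold to 178-fold across wild-type pools and by 275-fold to 353-fold in the heterozygous pools. CYGB and cygb2 are neighbours in that order, and CYGB in its lowest pool, 1.35 TPM, was below cygb2 in its highest, 1.47 TPM.

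A filter that asked for at least 1 TPM in at least 3 libraries kept mb and CYGB, each at or above 1 TPM in all 6, and left out cygb2, with 1 such library, and NGB, with 0. In the fit across all 16537 genes, 134, or 0.810%, were called higher in the heterozygotes, and 93, or 0.562%, were called lower. mb was among the 134, and CYGB, the other tested gene of the set, was not called. Quantile normalization split the calls into 206 higher and 75 lower. Since mb was chosen on this contrast, nothing is read from its call, which was made in 9 of 16 alternative fits and, among the 6 fits that left out 1 library, only in the one without wild-type pool 1. The log2 difference of mb stayed between 1.41 and 1.90 in all 16. It was 1.57 with wild-type pools 2 and 3 left out, the pools with the most egg transcripts. With heterozygous pools 2 and 3 left out, the pools with the most interrenal transcripts, it was 1.49.

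A pair of further globins, ADGB and xgb, was examined next. ADGB, androglobin, a large globin-containing protein of ciliated and testis cells in mammals, was listed at 2.68, 1.28 and 1.85 TPM among wild-type pools, against 0.955, 1.06 and 1.29 TPM among heterozygous ones. The highest heterozygous pool was just above the lowest wild-type pool, and ADGB was not called (log2 difference -0.46, SE 0.22, limma adjusted p = 0.39). xgb, globin X, a membrane-bound globin of fish and amphibians, stood at 0.220, 22.3 and 9.21 TPM for the wild type, and 0.346, 0.247 and 0.0860 TPM for the heterozygotes. It was high only in wild-type pools 2 and 3, the pools with the high sums of egg transcripts; the part of that tissue in its level was not tested. With 2 libraries at or above 1 TPM, xgb was below the filter.

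Red cell globins are the nearest relatives of these genes in the marrow and are among its abundant transcripts. hbaa1, an adult alpha globin, stood at 38224, 10548 and 18882 TPM across wild-type pools and 11036, 23835 and 18255 TPM across heterozygous pools, a range that the genotypes shared. Of the 13 tested red cell globin genes 0 were called in limma, with 1 at an unadjusted p under 0.05, against 1.37% of all tested genes called in either direction and 15.0% at an unadjusted p under 0.05, and their median log2 difference was 0.04, against -0.02 over all tested genes. mb did not follow their order. It was 0.831, 3.74 and 1.29 TPM per 1000 TPM of red cell globins in wild-type pools 1 to 3 and 6.08, 2.49 and 5.69 in heterozygous pools 1 to 3. That ratio overlapped between genotypes because wild-type pool 2, with the fewest red cell globin transcripts, lay above heterozygous pool 2, with the most of its genotype.

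Other genes of red cells did not pass the test. EPOR, the erythropoietin receptor, had the smallest p of the 12 tested red cell markers, at 27.6, 14.7 and 28.8 TPM among wild-type pools, against 31.9, 50.1 and 39.2 TPM among heterozygous ones. Its genotypes did not overlap (log2 difference 0.78, SE 0.32, limma adjusted p = 0.33). In limma 0 of the 12 were called and 1 had an unadjusted p under 0.05, beside 1.37% and 15.0% of all tested genes. The median log2 difference of these markers was 0.02.

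Myoglobin is usually found with genes of oxidative skeletal muscle, while the list used here held many fast-muscle genes, such as pvalb1 and TNNI2. Its slow-muscle genes smyhc1, TNNC1, TNNI1 and TNNT1 were all below the filter, so the counts of tested genes do not cover them. The skeletal muscle genes were mostly lower in the heterozygotes. Of the 19 tested, 4 fell and 0 rose in limma, where 0.562% of all tested genes were called lower and 0.810% higher. A negative difference was seen in 18 of 19 and a positive one in 1, beside 48.1% positive among all tested genes, and the median was -1.57. Without overlap, 12 were lower and 0 higher, where 9.79% of all tested genes were lower and 11.9% higher. pvalb1, a parvalbumin that buffers calcium in fast muscle, fell from 20.2, 29.1 and 26.6 TPM to 4.54, 3.83 and 1.96 TPM (log2 difference -2.60, SE 0.30, limma adjusted p = 0.013). Its relative pvalb2 fell from 7.22, 11.03 and 14.8 TPM to 0.538, 1.25 and 0.876 TPM (log2 difference -2.64, SE 0.30, limma adjusted p = 0.012). actc1b, a sarcomeric actin, fell from 16.4, 11.6 and 13.2 TPM to 2.18, 3.12 and 1.71 TPM (log2 difference -2.15, SE 0.25, limma adjusted p = 0.013). The fourth was a gene named TNNI2 (ENSDARG00000013752), a fast troponin I, which fell from 3.80 ± 0.592 to 0.541 ± 0.482 TPM (SD, n = 3 each, limma adjusted p = 0.039). Several copies share the symbol TNNI2, and reads may be split among them. Both pvalb2 and this TNNI2 gene reached 1 TPM in all wild-type pools but only in heterozygous pool 2. They passed the filter through the pools where they were high, so their calls support nothing further. In limma all 4 calls held without wild-type pool 1 and none held without wild-type pool 3 or without any single heterozygous pool, and without wild-type pool 2 only that of actc1b held. The call of TNNI2 was also lost with either smaller pseudocount. Of the muscle genes below the filter, 2 were higher in the heterozygotes without overlap, another gene named TNNI2 (ENSDARG00000029069), at mean levels of 0.361 TPM for wild-type and 1.85 TPM for heterozygous pools, and TNNC1 (ENSDARG00000037539), a troponin C, at 0.124 and 0.689 TPM. A larger number were lower without overlap, among them PGAM2, at mean levels of 2.53 and 0.168 TPM, and TNNT1, at 1.72 and 0.348 TPM.

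The size of these muscle levels sets a scale for mb. In the wild type mb was at 235 TPM on average while pvalb1, actc1b and ckma, a muscle creatine kinase shown as a defining marker, were at 25.3, 13.7 and 8.69 TPM. The sum of the skeletal muscle list came mostly from 1 gene, ENO3, an enolase of glycolysis, at 433, 1114 and 652 TPM for the wild type, and 400.0, 331 and 435 TPM for the heterozygotes. mb was 326, 220.2 and 225 TPM per 1000 TPM of that list in the wild type and 1469.9, 1383 and 1733 in the heterozygotes, 5.94-fold higher on average and without overlap. Many muscle genes were near 0 throughout: 23 of the 52 matched were under 1 TPM in all 6 libraries, the fast myosins myhz1.1 and myhz2 among them, with highest levels of 0.0495 and 0.0707 TPM.

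Of the 16 matched markers of heart muscle, a tissue that makes much myoglobin, 10 were under 1 TPM in all 6 libraries. MYL7, the regulatory myosin light chain of the heart, peaked at 0.190 TPM over the 6 libraries, and nppa, the atrial natriuretic peptide, at 0.0168 TPM. cmlc1, another heart myosin light chain, was at 0.0401, 0 and 0.377 TPM across wild-type pools and 1.28, 0.870 and 0.841 TPM across heterozygous pools, without overlap. The highest levels in the list were those of tnnt2d, a troponin T, at 14.6 and 2.61 TPM in wild-type pools 2 and 3 and no more than 0.593 TPM elsewhere, and of a gene named MYH6 (ENSDARG00000079564), a myosin heavy chain, at 8.34 TPM in wild-type pool 1 and no more than 0.101 TPM elsewhere. None of the 16 matched genes passed the filter, and their sum was 5.42 to 18.1 TPM among wild-type pools, against 2.62 to 3.17 TPM among heterozygous ones. Between genotypes mb was higher where the summed heart and skeletal muscle lists were lower. Within the wild type mb ran in the same order as the heart sum, which was 11.03, 18.1 and 5.42 TPM in pools 1 to 3, and was highest in pool 2, as was the skeletal muscle sum. Within the heterozygotes mb ran in the same order as the skeletal muscle sum, which was 445, 422 and 487 TPM. These orders are those of a few genes. In the wild type the heart sum came mostly from the MYH6 gene in pool 1 and from tnnt2d in pool 2. The skeletal muscle sum came mostly from ENO3, and not all muscle genes shared its order. ckma and tpma, for example, were lowest in wild-type pool 2, at 5.22 and 12.4 TPM. Both were highest in heterozygous pool 2, at 3.49 and 9.10 TPM. The part of muscle tissue in the level of mb was not tested.

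**Figure D2:**
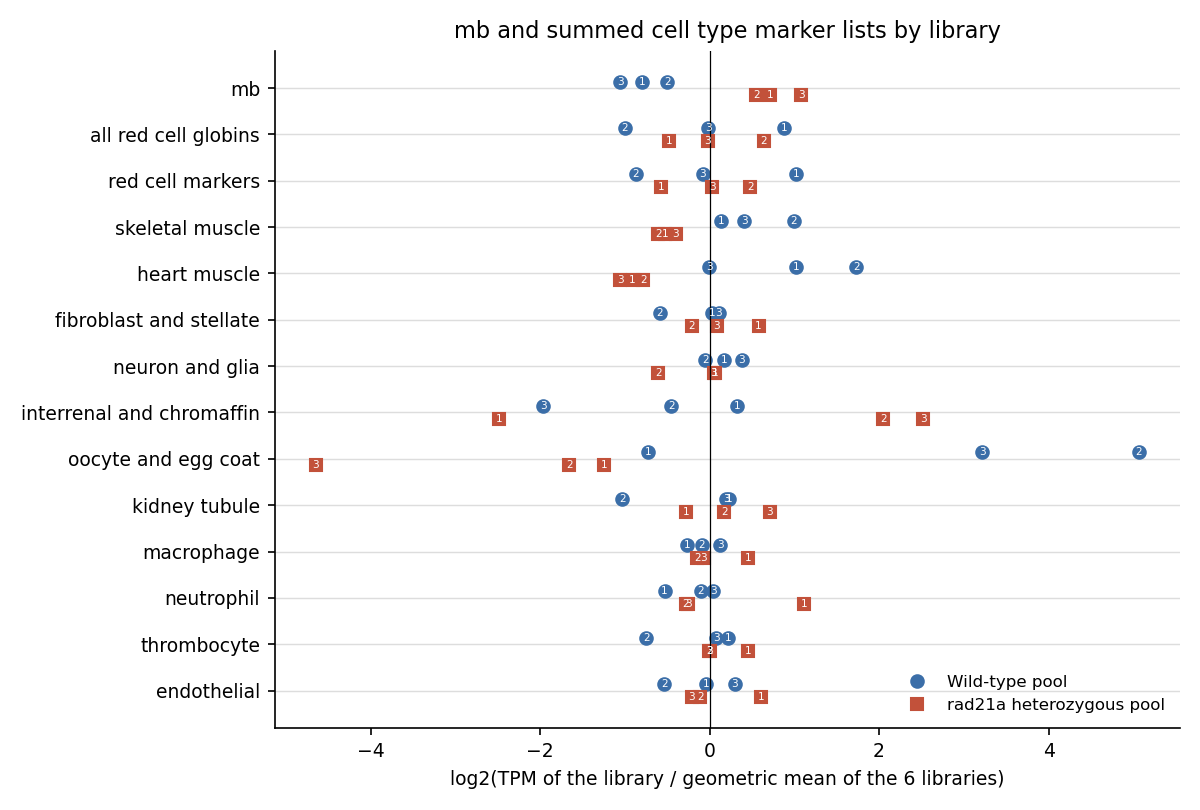
Level of mb and summed level of 13 cell type marker lists in each library, as log2 of the TPM over the geometric mean of the 6 libraries. Circles are wild-type pools and squares heterozygous pools, each with its number. For mb the 3 squares lie to the right of the 3 circles, for skeletal muscle, heart muscle and egg genes they lie to the left, and for the other lists the genotypes overlap.

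The summed markers of macrophages, neutrophils, thrombocytes, endothelium, kidney tubule, fibroblasts, neurons and interrenal tissue each overlapped between genotypes, but single genes did not. Of 23 tested macrophage genes 2 were called higher, both named MFAP4, a family used as macrophage markers in zebrafish. Without overlap, 6 were higher and 1 was lower. Among all tested genes 0.810% were called higher, and 11.9% were higher and 9.79% lower without overlap. MFAP4 (ENSDARG00000038681) rose from 1.64, 0.859 and 1.90 TPM to 79.7, 42.5 and 70.3 TPM (limma adjusted p = 0.0027). MFAP4 (ENSDARG00000089667), listed at 0.253, 0 and 0.673 TPM and at 89.03, 18.3 and 23.3 TPM, passed the filter only through the heterozygous pools (limma adjusted p = 0.015). The other tested copies of that name were not called, with log2 differences of 1.17, -0.42, -1.24 and -2.27. MFAP4 (ENSDARG00000090783), with the difference of -1.24, fell from 134, 96.8 and 195 TPM to 48.5, 59.4 and 64.8 TPM without overlap (limma adjusted p = 0.14). Of 10 tested interrenal genes 1 was called higher, cyp21a2, an enzyme of cortisol synthesis, which rose from 0.431, 0.502 and 1.03 TPM to 6.59, 20.6 and 29.02 TPM (limma adjusted p = 0.035). Among wild-type pools cyp21a2 reached 1 TPM only in pool 3. It passed the filter through the pools where it was high, so its call supports nothing further. Without wild-type pool 3 none of these 3 calls held in limma, those of cyp21a2 and the second MFAP4 gene were also lost without wild-type pool 2, and that of cyp21a2 without heterozygous pool 2 or 3. Copies that share the symbol MFAP4 may split reads. Like mb, the 3 called genes were higher in all heterozygous pools. That likeness is largely fixed by their calls and by the choice of mb on this contrast, so it supports nothing further. The part of macrophages or interrenal cells in the level of mb was not tested. Neutrophil markers, 13 of 17 listed symbols found, summed to 16706 to 24892 TPM among wild-type pools, and to 52472, 19907 and 20297 TPM across heterozygous pools 1 to 3. The interrenal list, 18 genes found, summed to 41.7 TPM in heterozygous pool 1 and to 965 and 1337 TPM in pools 2 and 3.

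Divided by the summed level of each of 21 lists in turn, mb was higher in all 3 heterozygous pools than in all 3 wild-type pools for 15 lists and overlapped for 6. The 6 were both forms of the red cell globin list, the red cell, neutrophil and kidney tubule markers, and the interrenal list. The mean ratio was above that of the wild type for all 21, from 1.95-fold for kidney tubule to 59.8-fold for egg genes. mb was chosen on this contrast, and its lowest heterozygous pool was 2.07-fold above its highest wild-type pool. A list that changed little or fell therefore had to give a higher ratio, and some lists share genes. Nothing about cell content is read from these counts. Per 1000 TPM of macrophage markers, for example, mb was at 71.4, 77.4 and 45.5 TPM for the wild type, and 123, 166 and 228 TPM for the heterozygotes. Per 1000 TPM of neutrophil markers it was at 13.8, 12.5 and 7.73 TPM across wild-type pools and 12.5, 29.3 and 41.6 TPM across heterozygous pools.

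For the cytoglobins the lists that bear on their usual cells were those of fibroblasts and neurons. Fibroblast and stellate markers, 17 genes found, added up to 431, 281 and 455 TPM across wild-type pools 1 to 3 and to 629.9, 364 and 446 TPM across heterozygous pools 1 to 3. In limma 0 of 16 tested genes were called and 5 had an unadjusted p under 0.05, beside 1.37% and 15.0% of all tested genes. The sum averaged 389 TPM over wild-type and 480.2 TPM over heterozygous pools. Yet 13 of the 16 genes had a negative log2 difference and 3 a positive one, beside 48.1% positive among all tested genes, and their median was -0.49. CYGB and that sum were both lowest in pool 2 of each genotype, as were the neuron and thrombocyte sums. Their highest pools differed. CYGB was highest in wild-type pool 1 and heterozygous pool 3, and the fibroblast sum in wild-type pool 3 and heterozygous pool 1. The part of fibroblasts in the level of CYGB was not tested. Neuron and glia markers, 15 genes found, summed to 45.1 to 60.7 TPM among wild-type pools, against 30.6 to 48.7 TPM among heterozygous ones, levels at which NGB stood near 0.

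Genes that make and break down haem, the group that every globin needs, showed no called member, 0 of 19 in limma. With 1 at an unadjusted p under 0.05, their median log2 difference was 0.05. The shares of all tested genes were 1.37% called and 15.0% at such a p. A gene named HMOX2 (ENSDARG00000114695), for the haem oxygenase that is made all the time, stood at 12.8, 14.2 and 15.7 TPM for the wild type, and 7.16, 9.42 and 9.35 TPM for the heterozygotes, without overlap (limma adjusted p = 0.24). BLVRA, the biliverdin reductase that acts after it, stood at 24.6, 29.5 and 24.8 TPM and at 11.2, 21.6 and 18.1 TPM, also without overlap (limma adjusted p = 0.34). Without overlap 2 of the 19 were lower and 1 was higher, near the shares of all tested genes, 9.79% and 11.9%. HMOX1 (ENSDARG00000027529), the inducible haem oxygenase, was at 68.8 ± 21.5 TPM across wild-type pools and 48.1 ± 5.75 TPM across heterozygous pools and overlapped.

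Reductases and cytochrome b5 proteins that can return globins to the reduced state had 0 of 8 genes called in limma and 1 at an unadjusted p under 0.05. All tested genes had 1.37% and 15.0%. The median log2 difference of the 8 was 0.01. CYB5R2, a cytochrome b5 reductase, stood at 5.58, 1.94 and 3.50 TPM among wild-type pools, against 5.81, 7.63 and 8.26 TPM among heterozygous ones (log2 difference 0.88, SE 0.33, limma adjusted p = 0.29). cyb5b, cytochrome b5 of the outer mitochondrial membrane, stood at 65.2, 20.02 and 39.6 TPM and at 50.2, 99.04 and 121.5 TPM, and overlapped.

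Hypoxia genes were examined because myoglobin responds to low oxygen in fish. Of the 16 subunits and regulators of hypoxia-inducible factor 0 were called in limma and 1 had an unadjusted p under 0.05, beside 1.37% and 15.0% of all tested genes. Their median log2 difference was -0.08. Of the 30 tested target genes 0 were called, with 4 at an unadjusted p under 0.05, beside 15.0% of all tested genes, and a median of 0.20. EGLN3, a prolyl hydroxylase that marks the factor for destruction and is itself a target, stood at 3.93, 1.66 and 2.92 TPM for the wild type, and 6.81, 4.67 and 8.52 TPM for the heterozygotes. Its genotypes did not overlap (log2 difference 1.01, SE 0.31, limma adjusted p = 0.23).

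The targets with the smallest p pointed in both directions. ca9, a carbonic anhydrase, stood at 0.294, 1.123 and 0.280 TPM across wild-type pools and 1.16, 1.83 and 3.45 TPM across heterozygous pools (log2 difference 0.98, limma adjusted p = 0.25). GAPDH, a glycolytic enzyme, stood at 1377, 5766 and 1975 TPM and at 528, 811 and 1354 TPM (log2 difference -1.58, limma adjusted p = 0.29), highest in wild-type pool 2. ALDOC (ENSDARG00000057661), an aldolase, stood at 1.18, 1.91 and 1.39 TPM and at 0.489, 0.397 and 0.852 TPM (log2 difference -0.66, limma adjusted p = 0.21). This copy reached 1 TPM only in the wild-type pools and passed the filter through them, so its direction supports nothing further. Another gene named ALDOC (ENSDARG00000019702) overlapped, at mean levels of 38.0 TPM for wild-type and 57.2 TPM for heterozygous pools (log2 difference 0.53). Among wild-type pools ca9 reached 1 TPM only in pool 2. HIF1A (ENSDARG00000034293) and EPAS1 (ENSDARG00000008697), alpha subunits of the factor, overlapped between genotypes, with log2 differences of 0.42 and 0.49.

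Of the other roles given to these globins, defence against reactive oxygen had 0 of 23 tested genes called in limma and 2 at an unadjusted p under 0.05. All tested genes had 1.37% and 15.0%. Positive differences were seen in 19 of 23, beside 48.1% of all tested genes, and the median was 0.14. Without overlap 4 were higher, beside 11.9%. The list summed to 5319, 4961 and 5504 TPM for the wild type and 5699, 6731 and 7334.5 TPM for the heterozygotes, without overlap. prdx1, a peroxiredoxin that removes peroxides, stood at 395, 192 and 259.7 TPM among wild-type pools, against 491, 1213 and 1584 TPM among heterozygous ones, without overlap (log2 difference 1.86, SE 0.48, limma adjusted p = 0.17). Between wild-type pool 3 and heterozygous pool 1 prdx1 differed by more than the list's sum did. So did TXN, at 940 and 1155 TPM in those pools, which was also higher in the heterozygotes without overlap. The lack of overlap of that sum therefore depends on single genes such as these. Nitric oxide enzymes had 0 of 5 called in limma and 1 at an unadjusted p under 0.05, beside 1.37% and 15.0% of all tested genes. NOS2 (ENSDARG00000026925), the inducible nitric oxide synthase, stood at 2.93, 2.80 and 4.17 TPM for the wild type, and 2.25, 0.937 and 1.46 TPM for the heterozygotes, without overlap (log2 difference -0.77, limma adjusted p = 0.25).

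Fatty acids also bind myoglobin, and 1 of 7 tested genes of fatty acid binding was called higher, where 0.810% of all tested genes were. The list's sum was far higher in wild-type pool 1, at 8028.5 TPM, than in any other library. It was 1061.5 and 801 TPM in wild-type pools 2 and 3, and 1338, 959 and 1072 TPM across heterozygous pools 1 to 3. CD36, a scavenger receptor that takes up fatty acids, was listed at 0.192, 0.239 and 0.557 TPM among wild-type pools, against 8.71, 5.66 and 12.2 TPM among heterozygous ones (log2 difference 2.85, SE 0.29, limma adjusted p = 0.0087). Every heterozygous pool was at least 10.2-fold above the highest wild-type pool. CD36 passed the filter only through the heterozygous pools, so it had to differ to be tested, and its call supports nothing further. The call was lost without wild-type pool 2 and without wild-type pool 3 (limma adjusted p = 0.052 and 0.064), with log2 differences of 2.80 and 2.97, and with a heterozygous pool left out CD36 fell below the filter.

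**Figure D3:**
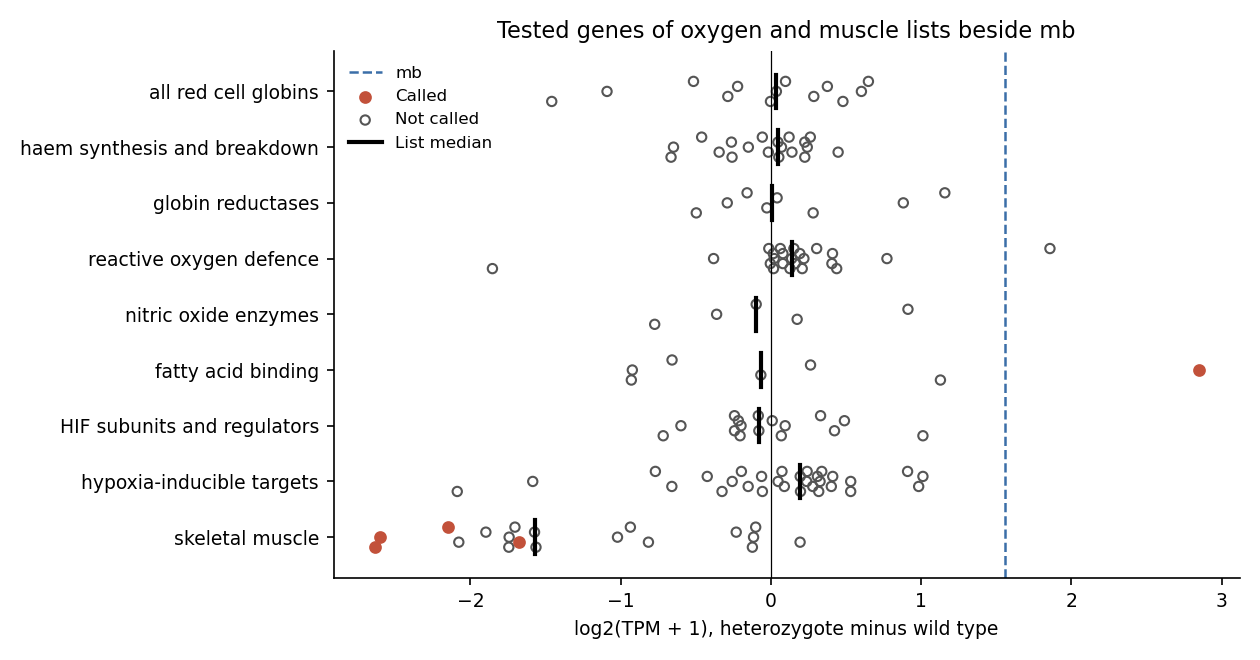
Log2 difference, heterozygote minus wild type, of every tested gene in 9 lists, with the difference of mb, 1.56, as a dashed line. Filled points passed the limma threshold, open points did not, and the black bar is the list's median. 4 skeletal muscle genes lie filled on the negative side, CD36 lies filled at 2.85, and prdx1 is the only open point beyond the dashed line.

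The genes whose levels followed mb most closely were found by Pearson correlation of log2(TPM + 1) over the 6 libraries, among tested genes that ranged over at least 1 log2 unit. The points share the same 6 libraries and the split between genotypes, and 70 of 8506 eligible genes, or 0.823%, reached 0.95, 18 of them with a gene-like symbol. The 8 highest with such a symbol were aqp7, tpk2, GLT1D1, BRD8, cfhl2, CFAP300, ight and CD36, with r from 0.988 down to 0.964. All 8 were higher in the heterozygotes without overlap, as were 11.9% of all tested genes. They were picked for their likeness to mb, itself chosen on this contrast, so their lack of overlap is largely fixed by that choice. GLT1D1, BRD8, cfhl2 and CD36 also reached 1 TPM only in the 3 heterozygous pools and passed the filter through them. For these genes the likeness to mb is largely fixed as well.

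The closest, aqp7, a channel for water and glycerol, stood at 2.62, 2.53 and 1.89 TPM across wild-type pools and 4.69, 4.65 and 6.08 TPM across heterozygous pools, and like mb was lowest in wild-type pool 3 and highest in heterozygous pool 3. tpk2, named as a thiamin pyrophosphokinase, stood at 5.87, 7.84 and 4.79 TPM and at 19.1, 19.2 and 19.6 TPM, nearly level among the heterozygous pools. cfhl2, by its name like the complement regulator factor H, stood at 0.264, 0.0602 and 0.195 TPM and at 12.7, 8.998 and 18.9 TPM, with the same order of heterozygous pools as mb. The other 4, apart from CD36, had heterozygous means of 2.14 to 4.95 TPM.

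**Figure D4:**
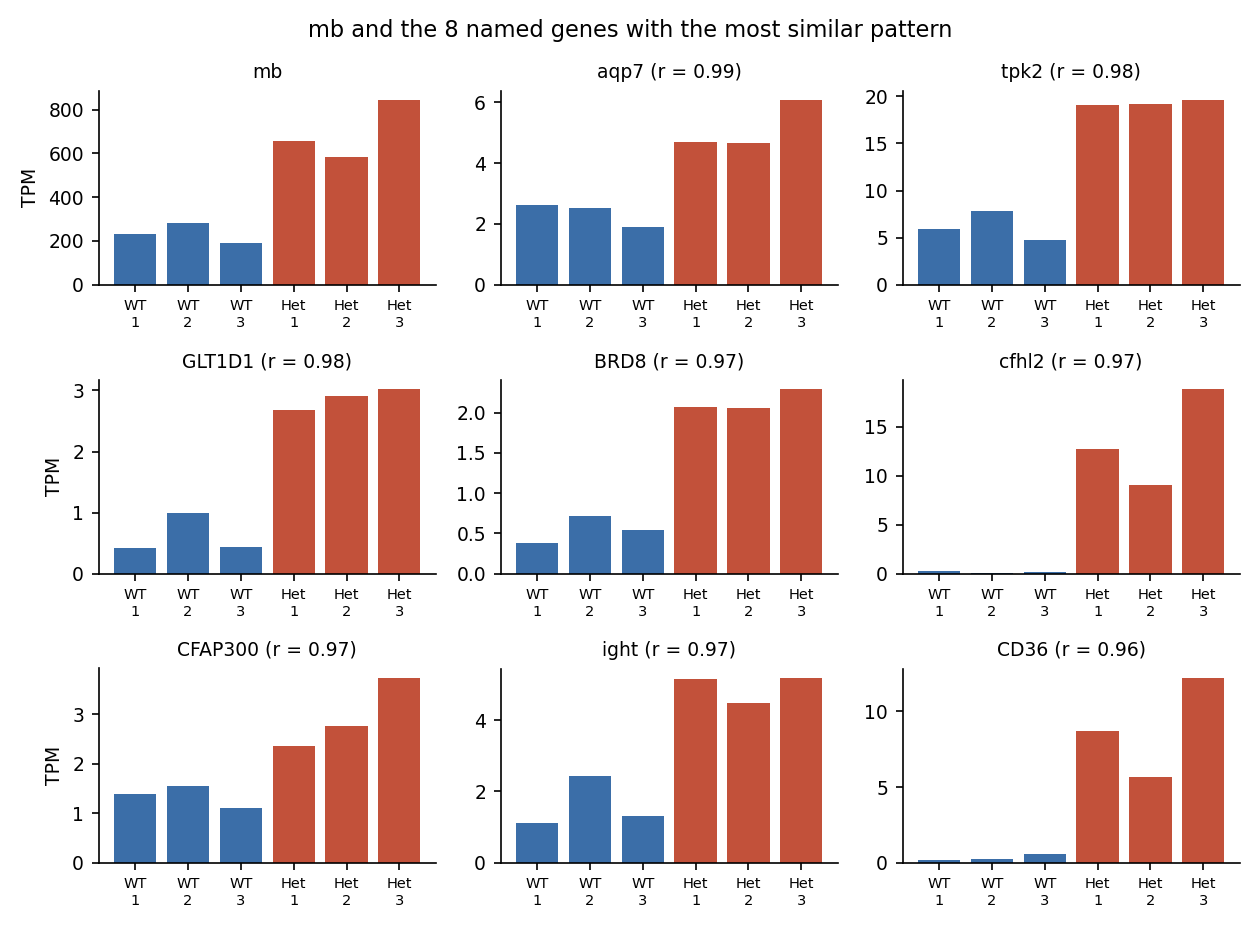
Level in TPM, on linear axes from 0, of mb and of the 8 named genes with the highest Pearson correlation to it over the 6 libraries, with blue bars for wild-type and red bars for heterozygous pools. In all 9 panels the 3 heterozygous bars stand above the 3 wild-type bars, from 4.65 TPM upwards against at most 2.62 TPM for aqp7.

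The genes beside mb on its chromosome were looked at after its values were seen. In the RefSeq gene order of the GRCz12tu assembly, which is not the build of the files and was used for names and order only, 12 of the 16 protein-coding genes within 8 places of mb could be matched to a single gene by symbol, and 11 were tested. None of the 11 was called in limma and 1 had an unadjusted p under 0.05, beside 1.37% and 15.0% of all tested genes. Their median log2 difference was -0.36. rab1aa, a small GTPase of vesicle traffic that lies directly on one side, stood at 33.0, 25.4 and 32.8 TPM among wild-type pools, against 26.2, 25.8 and 30.5 TPM among heterozygous ones. pane1, a centromere protein gene also called cenpm, on the other side, stood at 18.96, 83.5 and 27.15 TPM and at 15.97, 20.8 and 16.9 TPM. Both overlapped between genotypes.

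The largest difference among the neighbours was that of si:ch211-286b5.4, 7 places away, at 3.69, 45.3 and 39.6 TPM for the wild type, and 0.548, 1.47 and 0 TPM for the heterozygotes (log2 difference -3.72, limma adjusted p = 0.14). nanos3, a germ cell gene 6 places away that was below the filter, was listed at 0.184, 11.4 and 2.58 TPM for the wild type and peaked at 0.255 TPM among the heterozygous pools. Both were highest in wild-type pools 2 and 3, the pools with high egg transcripts, whose part in them was not tested. None of the 11 tested neighbours had all heterozygous pools above all wild-type pools, where 11.9% of all tested genes did. All were below in 1, si:ch211-286b5.4, where 9.79% of all tested genes were. With 11 genes these counts cannot be told apart from those shares.

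**Figure D5:**
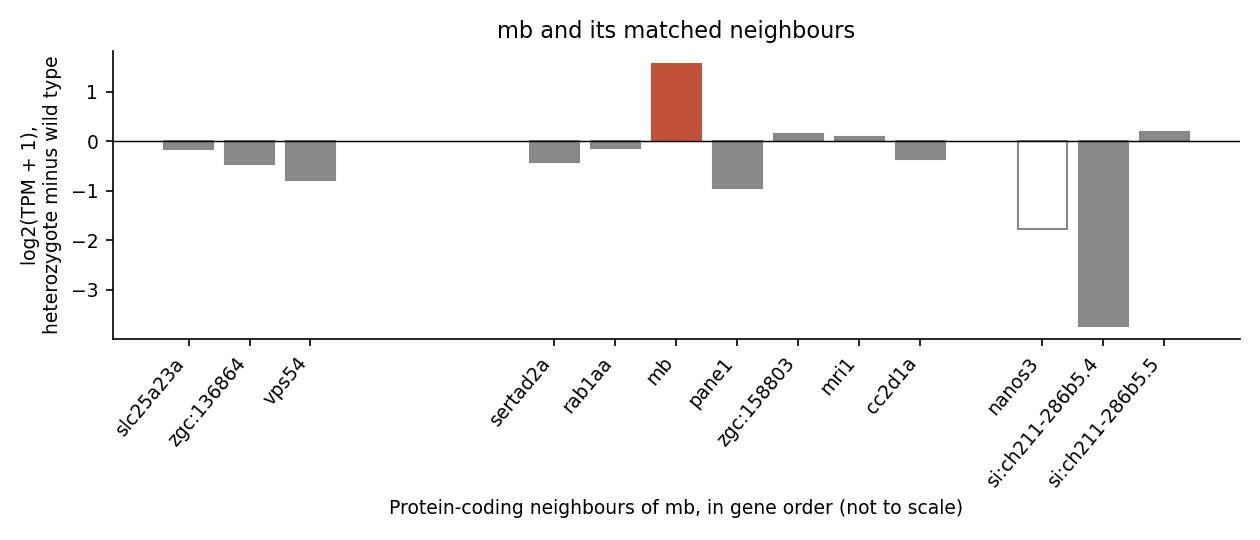
Log2 difference, heterozygote minus wild type on log2(TPM + 1), of mb, in red, and of its 12 matched neighbours, in grey, by gene order and not to scale. The open bar, nanos3, was below the filter, and gaps are neighbours that were not matched. mb stands at 1.56 and its tested neighbours between -3.72 and 0.18.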

How the data were processed

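Total RNA from 6 whole kidney marrow pools was sequenced from TruSeq libraries, per the labels' protocols. FastQC, HISAT2 2.0.4, featureCounts and the build GRCz11 are named in the submitters' processing notes. The authors deposited TPM values, which sum to 1000000 in each library. The annotation, gene lengths, strand setting and treatment of reads with several matches were not stated there, nor in the labels, so overlapping genes and near-identical copies are uncertain. Of 32057 identifiers, 28988 had a symbol in the name table.

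limma 3.58.1 in R 4.3.3 was fitted to log2(TPM + 1) of genes with at least 1 TPM in at least 3 libraries, with genotype as the only term, a variance trend and Benjamini-Hochberg adjustment, at a threshold of 0.05. The steps were tested on simulated data. There 1 of 100 genes with a log2 change of 1 was called, and 80 of 100 genes with a log2 change of 3, with 6 false calls. A list with 0 called genes can therefore hold differences of the smaller size. Lists were matched by symbol, or else by the capital human-style name without copy suffix, which can take in several copies. They are described by counts and medians. All 21 lists and the members were chosen with earlier results of these data known. Red cell beta globins, named HBE1 in the name table, and si:ch211-5k11.8, whose RefSeq synonym is hbaa1.2, were added to the globin list after seeing the names. Named genes were the members, the other globins, per list the 4 or fewer genes of lowest p, and the 8 genes most like mb. Genes shown as defining markers (ckma, ENO3, the fast myosins, MYL7, nppa, cmlc1, tnnt2d, MYH6, TNNC1, the second TNNI2, hbaa1) and the neighbours were chosen after their values were seen. So were tpma, PGAM2, TNNT1 and the second ALDOC gene. Alternatives covered the pseudocount, filter, scaling, variance trend, library weights, replicate block and left-out libraries.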

Additional observations from a re-analysis of the deposited data

How the results depend on the processing

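The log2 difference of mb was 1.90 with weights per library, 1.41 to 1.70 with 1 library left out, and within the spread between pools of its main value of 1.56 in the other alternatives. The count of genes called, 227, was 132 with no filter on low values, 117 with the filter raised to 5 TPM, 7397 with weights per library (2088 higher, 5309 lower) and 4 to 849 with 1 library left out (leaving out wild-type pool 1 gave 849, pool 2 gave 47 and pool 3 gave 4, and leaving out heterozygous pools 1, 2 and 3 gave 38, 41 and 20). It was 0 without wild-type pools 2 and 3 and 0 without heterozygous pools 2 and 3, fits chosen after seeing the data in which the lone library of a genotype is assumed to vary like the others, with 2087 and 972 genes at an unadjusted limma p under 0.05. With libraries left out the filter still asked for 3 libraries. With the replicate number as a block 25 genes were called and the mb difference was 1.56. Same-numbered pools had correlations of deviations of -0.27, 0.12 and -0.13, so the numbers were not taken to pair the pools. pvalb1, pvalb2, actc1b, TNNI2 (ENSDARG00000013752), CD36, cyp21a2 and MFAP4 (ENSDARG00000089667) were not called with the replicate block, nor without wild-type pool 3. Quantile normalization moved the median of all genes from -0.02 to 0.11. With a pseudocount of 0.1 the cygb2 difference was -1.54, and the CYGB difference ranged from -0.15 to 0.27. The cause of these changes was not tested. Read depth is unknown, so the floor under cygb2 and NGB cannot be given.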
